A study of Caenorhabditis elegans with 2 samples.

Results

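ELT-3, a transcription factor of the GATA family, was profiled by ChIP-seq, and the regions called at and around its own gene, elt-3, are described here. The gene (WBGene00001251 in Ensembl WBcel235 release 115) is 1 of 19973 protein-coding genes on the nuclear chromosomes. It lies on the plus strand of chromosome X, from 13934874 to 13941216 on build ce11. Every region that overlapped the gene body extended by 20 kb on each side was taken, a window of 46343 bp. The window held 4 of the 637 regions of the optimal list, the one filtered by the irreproducible discovery rate (IDR), which scores how well 2 replicates order the same regions. It held 15 of the 12702 regions of the pooled list, 20 of the 19168 of the replicate 1 list and 31 of the 26381 of the replicate 2 list. These 3 lists hold peaks and background regions together, so a region far down any of them may be background.

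The 1 group of 2 biological replicates came from Caenorhabditis elegans strain OP75, which carries the mutation unc-119(ed3) III and an insertion, wgIs75, that targets elt-3 with an eGFP tag. Chromatin came from whole mixed-stage embryos, sexes pooled, and so from all tissues at once. No second condition was labelled, and control data were not analysed here. The labels do not say how much elt-3 sequence the insertion holds or in how many copies. Signal from the insertion and signal from the gene on chromosome X cannot be told apart in these lists.

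GATA factors bind DNA through zinc fingers that recognise WGATAR, where the first letter stands for an A or a T and the last for an A or a G. In the worm embryo a cascade of them specifies the epidermis: ELT-1 commits cells to the epidermal fate, and ELT-3 acts after it in the differentiating hypodermis. Some transcription factors bind near their own genes.

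Both optimal-list regions inside elt-3 had their summits in introns, and the other 2 lay far upstream, nearest to the genes ekl-5 and mir-47. The sequences around these 4 summits, and around another intronic summit just under the threshold of the optimal list, are shown so that the GATA letters in them can be read. Each runs from 100 bp before to 100 bp after the pooled-list summit, 5′ to 3′ on the plus strand (RefSeq WBcel235, the ce11 build). Capitals mark WGATAR on either strand. It is present in the 3 intronic sequences and in neither upstream one, and in 52.8% of the same windows around the 614 nuclear optimal-list summits.
Intron, summit 2479 bp downstream of the 5′ end (chrX:13937253-13937453): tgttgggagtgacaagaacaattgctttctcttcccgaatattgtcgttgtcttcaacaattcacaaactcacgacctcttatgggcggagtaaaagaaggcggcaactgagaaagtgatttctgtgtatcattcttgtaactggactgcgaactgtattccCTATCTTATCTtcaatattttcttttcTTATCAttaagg
Intron, summit 3298 bp downstream of the 5′ end (chrX:13938072-13938272): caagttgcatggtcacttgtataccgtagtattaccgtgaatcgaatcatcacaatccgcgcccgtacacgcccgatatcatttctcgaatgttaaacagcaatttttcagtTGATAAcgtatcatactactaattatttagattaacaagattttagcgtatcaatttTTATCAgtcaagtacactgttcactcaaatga
Intron, summit 4723 bp downstream of the 5′ end (chrX:13939497-13939697): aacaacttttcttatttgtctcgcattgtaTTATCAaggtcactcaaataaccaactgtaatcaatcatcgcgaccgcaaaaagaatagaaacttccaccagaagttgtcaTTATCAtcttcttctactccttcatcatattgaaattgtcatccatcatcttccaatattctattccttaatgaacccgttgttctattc
Upstream, summit 14305 bp from the 5′ end (chrX:13920469-13920669): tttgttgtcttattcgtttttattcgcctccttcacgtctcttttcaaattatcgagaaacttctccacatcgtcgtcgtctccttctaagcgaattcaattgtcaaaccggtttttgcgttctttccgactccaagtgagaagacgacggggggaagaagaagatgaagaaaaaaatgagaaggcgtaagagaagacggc
Upstream, summit 17262 bp from the 5′ end (chrX:13917512-13917712): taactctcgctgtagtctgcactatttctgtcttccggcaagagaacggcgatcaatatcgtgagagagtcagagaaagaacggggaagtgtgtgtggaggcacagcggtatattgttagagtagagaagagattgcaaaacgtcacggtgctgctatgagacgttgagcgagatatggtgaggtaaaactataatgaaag

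**Figure D1:**
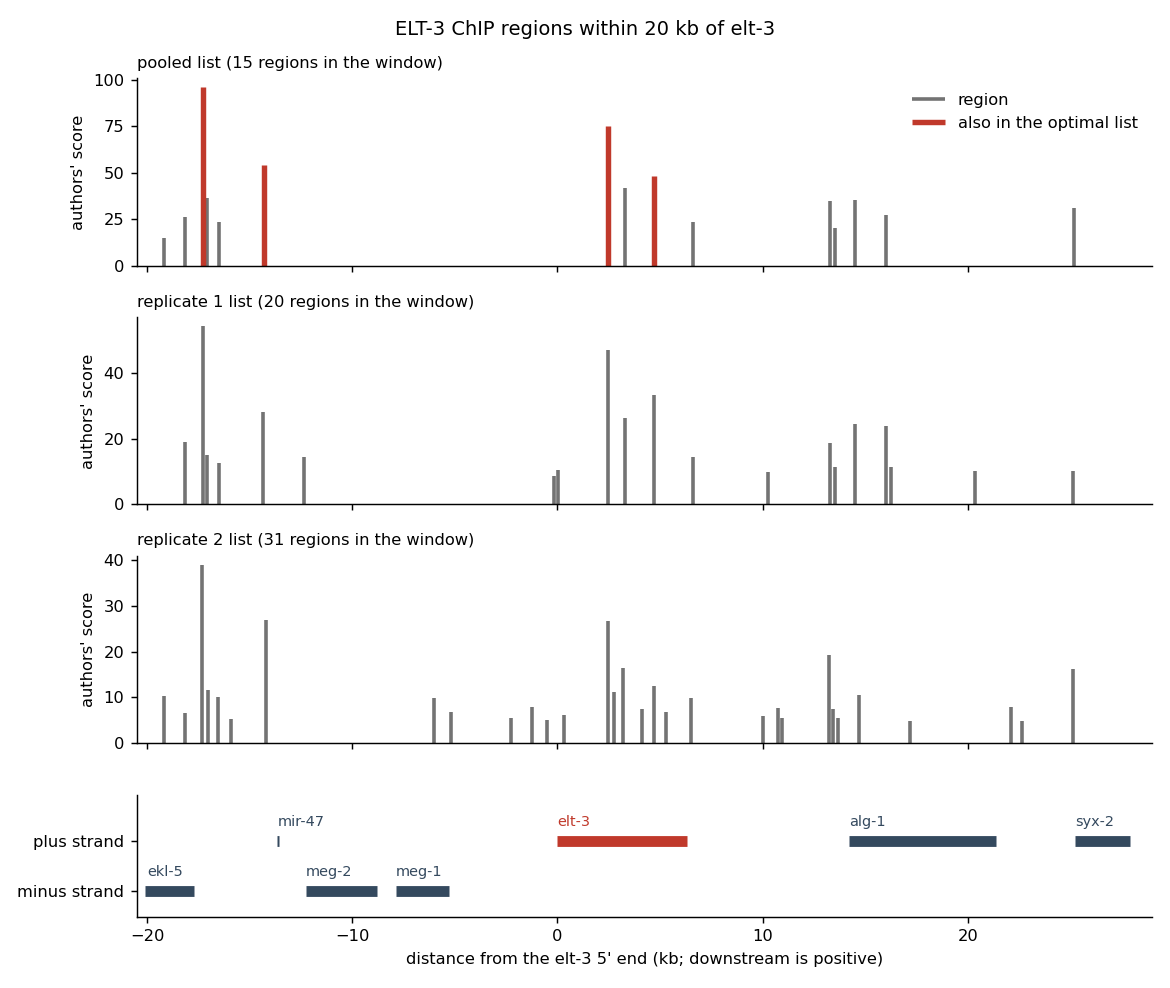
Authors' score (vertical axis, no stated scale, comparable only within a panel) of each region against the distance of its summit from the elt-3 5′ end in kb, in the pooled list and both replicate lists, with protein-coding and miRNA genes below. The 4 red bars are regions of the optimal list; 2 stand inside elt-3 and 2 upstream, and none stands at the 5′ end.

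The stronger intronic region spanned 13937163 to 13937542 of chromosome X. Scores are the peak caller's values as the authors deposited them, and are read here by rank within a list, where rank 1 is the highest score. The region had a pooled score of 75.02, rank 132 of 12702 in the whole list and rank 24 among the 2463 regions of chromosome X. It scored 46.98 in the replicate 1 list, rank 111, and 26.7 in the replicate 2 list, rank 234. Both replicates thus placed it high, with summits 3 bp apart. The summit lay in the 3622 bp intron, the longest of elt-3. It was 94 bp beyond the end of K02B9.8, a non-coding RNA gene in the same intron, which the region partly overlapped. The annotated 5′ end nearest to the summit was that of K02B9.7, a non-coding RNA gene on the minus strand, 215 bp away.

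The weaker intronic region spanned 13939407 to 13939786, with its summit in a 269 bp intron. The region was wider than that intron and reached into the exons on both sides. Its pooled score was 48.1, rank 442. It scored 33.3 in the replicate 1 list, rank 312, and 12.4 in the replicate 2 list, rank 1875. The replicate 2 rank was 6.01 times the replicate 1 rank, a ratio at or above that of 87.0% of the 584 nuclear optimal-list regions that both replicates matched within 100 bp. The summits were 16 bp apart, so the replicates placed the region alike but ranked it differently.

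Between them lay one more intronic region, from 13937982 to 13938361, which missed the optimal list narrowly. The optimal list held the 637 highest regions of the pooled list, and this region ranked 641 with a score of 41.9. It scored 26.2 in the replicate 1 list, rank 644, and 16.5 in the replicate 2 list, rank 898, with replicate summits 82 bp apart. Its 2 replicate ranks lay closer together, 1.39 times apart, than those of either intronic region above the threshold.

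elt-3 has several annotated transcripts, which begin at different places, so the intronic summits stand upstream of some of them. Transcript K02B9.4a.1 starts at 13938743, 3869 bp into the gene. The summit at rank 132 was 1390 bp upstream of that start and the summit at rank 641 was 571 bp upstream of it. The summit at rank 442 was 129 bp upstream of the annotated start of K02B9.4d.1 and 257 bp downstream of that of K02B9.4c.1, both of which are annotated from their start codon, so that their true 5′ ends may lie elsewhere. No transcript was measured here.

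The 5′ end of the longest transcript carried no region of the optimal or pooled list. From 1000 bp upstream to 500 bp downstream of it, the optimal and the pooled list held 0 summits, a window that held at least 1 optimal-list summit in 1.79% of all protein-coding genes and at least 1 pooled-list summit in 25.4%. The replicate 1 list had 2 summits there, 189 bp upstream at rank 17675 and 36 bp downstream at rank 11474. The replicate 2 list also had 2, at 491 bp upstream with rank 18939 and 315 bp downstream with rank 12762. None of these weak summits lay within 100 bp of one in the other replicate. WGATAR occurred 6 times in that window, at 2 places inside replicate 1 regions and 3 inside replicate 2 regions. The share of the window that those regions covered is not given here.

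The region of highest score near elt-3 lay upstream of ekl-5, a gene on the minus strand, 17262 bp from the 5′ end of elt-3 but only 441 bp from that of ekl-5. It spanned 13917422 to 13917801 and had a pooled score of 95.9, rank 60. It scored 54.2 in the replicate 1 list, rank 71, and 38.8 in the replicate 2 list, rank 70. Its replicate ranks were 1.01 times apart, a ratio that 0.856% of the 584 matched nuclear regions did not exceed. Weaker pooled-list regions lay near it at ranks 2140, 928 and 2955, each matched within 100 bp in both replicate lists. A further one at rank 10763 was matched in replicate 2 alone. The region at rank 928 overlapped the one at rank 60, so they may not be separate.

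The other upstream region spanned 13920379 to 13920758, with its summit 681 bp upstream of the annotated 5′ end of mir-47, a microRNA gene, and 14305 bp upstream of elt-3. Its pooled score was 54.3, rank 309. It scored 28.0 in the replicate 1 list, rank 534, and 26.96 in the replicate 2 list, rank 230. The replicate summits stood on either side of the pooled one, 27 and 88 bp away and 115 bp from each other, the widest separation among the 4 optimal-list regions. Between this region and elt-3 lie meg-1 and meg-2, which encode germ granule proteins, and the pooled list had no summit there.

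Downstream of elt-3 no region reached the optimal list, though the one 974 bp upstream of alg-1, at pooled rank 1030, was at rank 603 in the replicate 2 list. The pooled list had 6 regions there, with ranks from 963 to 4448. The first, 253 bp beyond the end of elt-3, was at rank 2980 and was matched in both replicates, at ranks 4286 and 3465. The next 4 lay at or just upstream of alg-1, which encodes an Argonaute protein of the microRNA pathway. The highest of those, at rank 963 with a score of 35.4, had its summit 80 bp from the small nucleolar RNA gene K02B9.10 and had no replicate 2 summit within 100 bp. The last lay 120 bp upstream of syx-2, a syntaxin-family gene, at rank 1399, and the replicates ranked it 11918 and 946.

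All 4 optimal-list regions were matched by a summit within 100 bp in both replicate lists, as were 95.1% of the 614 nuclear optimal-list regions. Within the 637 highest regions of each replicate list 3 of the 4 were matched, where 50.3% of nuclear optimal-list regions were. The exception was the region 4723 bp downstream, through its replicate 2 rank. Of all 15 pooled-list regions of the window 12 were matched in both lists, against 36.6% of 12676 nuclear pooled-list regions. The 12 include the 4 optimal-list regions. The replicate lists agreed less over their full length. Of 20 replicate 1 regions in the window 11 had a replicate 2 summit within 100 bp, where 24.6% of nuclear replicate 1 regions did. Of 31 replicate 2 regions 11 had a replicate 1 summit within 100 bp, where 17.9% of nuclear ones did. The region near mir-47 is not among these, since its replicate summits are 115 bp apart. Regions are not replicates and neighbours share chromatin, so these shares are given with no test. They also do not allow for rank, or for the higher density of replicate regions in the window, described below.

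**Figure D2:**
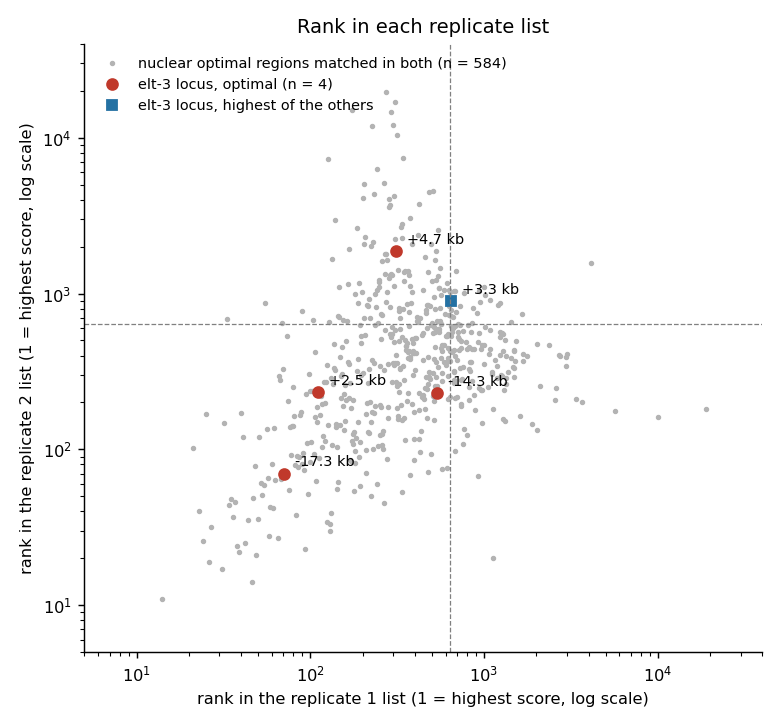
Rank in the replicate 1 list (horizontal) against rank in the replicate 2 list (vertical), both on log scales, for 584 nuclear optimal-list regions matched in both lists (grey), the 4 at elt-3 (red) and the intronic region at rank 641 (blue); labels give the distance from the elt-3 5′ end in kb and dashed lines mark rank 637. The region near ekl-5 has nearly equal ranks of 71 and 70, and the weaker optimal-list region inside elt-3 lies above the line for replicate 2, at 1875.

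Few genes had as many optimal-list regions nearby. At least 1 such region lay within 20 kb of 22% of protein-coding genes, and at least 4 lay within 20 kb of 45 of 19973, or 0.225%, elt-3 among them. Windows of neighbouring genes overlap, and these 45 genes fell in 10 separate stretches of the genome, the stretch at elt-3 including meg-1 and meg-2. On chromosome X, 11 of 2731 genes had at least 4, or 0.403%. The optimal list was sparse on the rest of chromosome X, with 126 regions, or 0.0713 per 10 kb. The nearest optimal-list region outside the window was 233.8 kb upstream of the gene, and the next on the other side was 122.6 kb downstream. The 4 regions at elt-3 were the whole content of a 362.8 kb stretch between them. Gaps between other optimal-list regions are not given here, so these distances are not read as particular to elt-3.

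**Figure D3:**
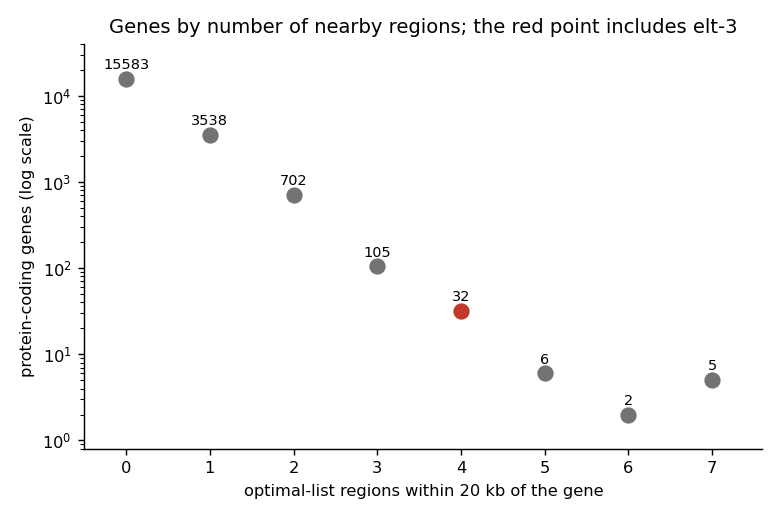
Number of protein-coding genes (vertical, log scale) by the number of optimal-list regions within 20 kb (horizontal), with the number of genes printed above each point. The red point, at 4 regions, stands for the 32 genes that include elt-3; 13 genes had more.

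Within gene bodies the count was also uncommon. Of all protein-coding genes, 0.881% had at least 1 optimal-list summit in the gene body and 13 had at least 2, or 0.0651%. elt-3, at 6343 bp, was number 2 from the shortest of the 13, whose median length was 14771 bp. Among genes of like length, which differed from elt-3 by a ratio of at most 5 to 4, 2 of 1613 had at least 2, or 0.124%. In the pooled list elt-3 had 3 summits in its body, a number reached by 2.16% of all genes and 4.46% of those of like length.

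The 3 longer lists were also denser at elt-3 than elsewhere on chromosome X. The pooled list had 3.24 regions per 10 kb in the window, against 1.39 on the rest of the chromosome, a ratio of 2.34. Some pooled-list regions overlapped each other, and with these merged the window held 13 and the ratio was 2.15. Without merging, the ratio was 2.05 in the replicate 1 list and 2.38 in the replicate 2 list, and 12.1 in the optimal list. At least as many pooled-list regions as the 15 at elt-3 lay within 20 kb of 1.53% of protein-coding genes, and at least as many replicate regions at 1.19% for replicate 1 and 0.12% for replicate 2. Pooled-list regions covered 11.7% of the window and 5.13% of the rest of X. The summits were unevenly placed, with 6 in the pooled list from 20 to 10 kb upstream of the 5′ end, 0 from 10 kb upstream to the 5′ end, and 4 in each of the next 2 stretches of 10 kb. The 4 optimal-list regions are counted in the pooled list and have matches in both replicate lists, so these ratios are not of weak regions alone. The part of the inserted elt-3 sequence in the raised density was not tested.

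**Figure D4:**
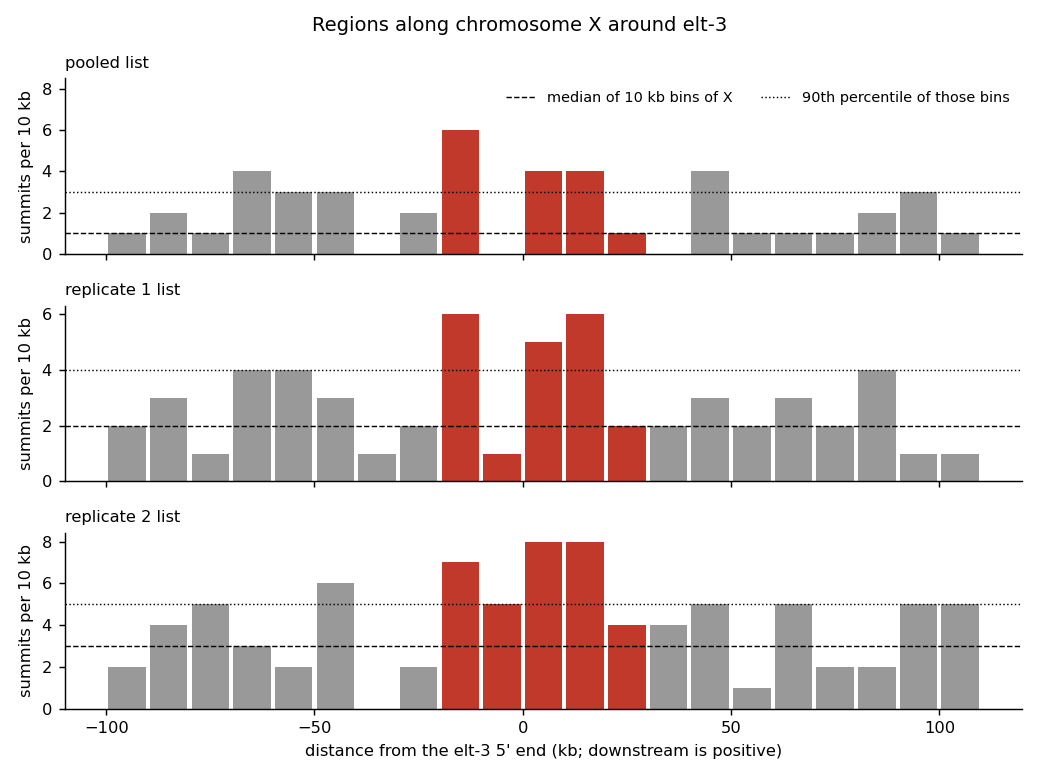
Summits per 10 kb (vertical) against distance from the elt-3 5′ end in kb (horizontal) in the pooled and both replicate lists, with the bins around elt-3 in red. Dashed lines give the median and dotted lines the 90th percentile of all 10 kb bins of chromosome X, which are 1 and 3 summits in the pooled list; the bin from 20 to 10 kb upstream holds 6.

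The distance of GATA letters from the summit varied among the regions. Within 50 bp of the summit, WGATAR was found at 1 of the 4 optimal-list regions, the one 4723 bp downstream, while 38.4% of the 614 nuclear optimal-list summits had it. There the letters are TTATCA, the reverse complement of TGATAA, centred 13.5 bp from the summit. TGATAA on either strand stood within 50 bp at that region alone of the 4, and at 24.4% of nuclear optimal-list regions. The region 2479 bp downstream had 3 sites, centred 64.5, 69.5 and 91.5 bp from the summit, of which the first 2 overlap. Among regions of the pooled list alone, the intronic one at rank 641 had TGATAA centred 14.5 bp from its pooled-list summit. Upstream, the one at rank 2955, near ekl-5, had 2 sites centred 20.5 and 40.5 bp from its summit, and the one at rank 928 had TGATAA centred 68.5 bp away. Downstream of elt-3, TTATCA was centred 47.5 bp from the summit at rank 2980, and 1 site 32.5 bp from that at rank 2012. The replicate 2 summits of the regions at ranks 641 and 2980 had no WGATAR within 50 bp, the nearest being 96.5 bp away at each. The region at rank 2012 had no replicate 2 summit within 100 bp. Letters within 50 bp of a pooled-list summit were thus found inside elt-3, upstream and downstream, but not at most regions. The pooled-list regions at ranks 442, 641, 2955, 2980 and 2012 had them, and the rest of those in the window had none. The same share over all pooled-list regions is not given here. Across whole regions 3 of the 4 held the letters, where 68.9% of nuclear optimal-list regions did. The region near mir-47 held none, and the one near ekl-5 had 1 site, centred 119.5 bp from its summit.

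Most copies of the letters at the locus lay outside regions, as did most of the window. WGATAR occurred 125 times in the window, or 2.70 per kb, close to the 2.57 per kb of chromosome X. Of these, 6 lay in optimal-list regions, 16 in pooled-list regions, 18 in replicate 1 regions and 33 in replicate 2 regions. In the same order, the regions covered 3.28, 11.7, 15.0 and 22.9% of the window. In the gene body 22 copies occurred, of which 5 lay in optimal-list regions and 7 in pooled-list regions. The shares covered above are for the whole window. The regions take up more of the gene body, a share not given here, so these counts are not set against them. A match is a run of letters and not a measured site.

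Genes of other GATA factors and of epidermal regulators had fewer optimal-list regions nearby than elt-3, as did nearly all protein-coding genes. At least 1 such region lay within 20 kb of 22% of protein-coding genes. Of 11 GATA factor genes 1 had an optimal-list region within 20 kb, egl-27, which encodes a chromatin-associated protein with a GATA-type finger. That region, at rank 115, overlapped the gene body. The other 10, elt-1 and the elt-2 and end-1 genes of the endoderm among them, had 0. Of 11 epidermal regulator genes, a list that shares elt-1, egl-18 and elt-6 with the first, 2 had 1 region each. They were nhr-23, a nuclear receptor gene of the moulting cycle, at rank 474, and rnt-1, a Runx-family gene, at rank 171. Neither region overlapped the gene body. The one of nhr-23 lay within 2 kb of it, and the one of rnt-1 lay farther away. The median number of pooled-list regions within 20 kb was 6 over the GATA factor genes and 9 over the epidermal regulators, where elt-3 had 15 and the median protein-coding gene 5. elt-1, which acts before elt-3, had 11 pooled-list regions, egl-27 had 19 and nhr-23 had 23. Near unc-119, the gene mutated in the strain, the optimal list had 0 regions and the pooled list 5.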

How the data were processed

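The lists came from 1 strain and 1 group, with 2 biological replicates. Per the authors' file listings, peaks and background regions were called against a control on each replicate and on both pooled, and the optimal list was derived from those 3 lists by IDR. For the aligner, the caller and the IDR threshold, the entry is: not given in the sources used here. Each deposited region carries a score with no stated scale and a −log10 q-value. The deposited −log10 q-value was not used for ranking, because 534 of 637 optimal-list regions, the 4 at elt-3 included, tie at its highest value, 3.03. Read depth is unknown from region lists. Only ce11 lists were used, with RefSeq WBcel235 sequence and Ensembl release 115 annotation; ce10 lists were not used. Summits are the deposited offsets, mostly the centre of regions of fixed width (380 bp, or 364 bp in replicate 2), so widths were not compared.

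Regions were counted by overlap of at least 1 bp, matched between lists by summits within 100 bp, and searched for WGATAR within 50 bp of the summit on both strands (Python 3.11.15, pandas 2.3.3). Counting and searching were tested on simulated regions and sequences. No p-value was computed: with 1 group and no control lists, values are set beside the same values over all genes or regions. Named genes were elt-3, genes nearest its regions, unc-119 and 2 lists of GATA factor and epidermal regulator genes. The gene, the lists and the window were chosen with earlier results of these data known. The protein sequence of ELT-3 was not used here.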

Additional observations from a re-analysis of the deposited data

How the results depend on the processing

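Of 32 alternatives, 21 left a count within 1.5 times of the reported one, or a ratio within 1 SD between replicates (0.234). Merged regions, windows around the 5′ end and both definitions of like length were chosen after seeing the data, and the second of those was set once the counts of the first were known. With lengths within 25% of that of elt-3, 2 of 1938 genes had at least 2 optimal-list summits in the body and 76 at least as many pooled-list ones, against 2 and 72 of 1613. With 10 kb in place of 20 kb the optimal list had 2 regions, the pooled list 8, and 315 genes had at least as many optimal-list regions as elt-3. With 50 kb the optimal list still had 4, the pooled list had 25, 267 genes had at least as many optimal-list regions, and the density ratio was 1.70. The optimal-list counts at elt-3 follow from the window. Both upstream optimal-list regions lie more than 10 kb away, and no optimal-list region is added out to 50 kb. On chromosome X alone 11 genes had at least 4. WGATAR was at 2 of 4 regions within 100 bp of the summit, where 52.8% of nuclear optimal-list regions had it, and at 3 of 4 in whole regions, where 68.9% did. With either replicate left out, the window held 4 regions among the 637 highest, but in the replicate 2 list these were not the reported 4: the weaker intronic region, at rank 1875, gave way to a region near alg-1, at rank 603. Then 47 to 59 genes had at least as many. At the replicate summits nearest to the reported 4 regions, 1 of 4 had WGATAR within 50 bp in either list. The list of the remaining replicate had 20 to 31 regions, and the density ratio was 2.05 to 2.38. The replicate lists hold 19168 and 26381 regions, so their counts are not on 1 scale. Matching summits within 50 bp left 3 of 4 regions matched in both replicates, the one near mir-47 being lost. No paired analysis was possible because there is 1 group. What the lists leave out cannot be judged without read depth.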

Other observations

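Other letters were found at the upstream regions, of kinds chosen after their frequency in the whole series was known. Within 100 bp of the summit, CGTCTC or its reverse complement occurred 2 times at the region near mir-47 and 1 time at the region near ekl-5, and at 28.7% of the 614 nuclear optimal-list summits. GAGAGA, on either strand, occurred 1 time at the region near ekl-5 and at 42.8% of nuclear optimal-list summits. Neither occurred in the 3 intronic sequences of elt-3, and ACGCAG, at 23.8% of nuclear summits, occurred in none of the 5. The intronic sequences were also lower in G and C, at 38.8, 35.8 and 34.3%, against 45.8% near ekl-5 and 42.8% near mir-47. The median over nuclear optimal-list regions was 42.8%, with quartiles of 38.4 and 47.6%.

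A region of the replicate 2 list alone, at rank 2477 and 2744 bp downstream of the elt-3 5′ end, had 3 copies of WGATAR within 50 bp of its summit. It overlapped the stronger intronic region, whose summit was the nearest in the replicate 1 list, 265 bp away. It was picked from the replicate 2 regions of the window for these copies, and the share over all replicate 2 regions is not given here.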
